A study of Arabidopsis thaliana with 6 samples.

Results

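Auxin (indole-3-acetic acid, IAA) is made from tryptophan in a short pathway, and the 9 genes described here encode enzymes at its start and at its end. They were chosen by their gene identifiers, out of 33233 gene loci in the authors' deposited table. The synthesis genes are TAA1 (AT1G70560), TAR2 (AT4G24670), YUC3 (AT1G04610), YUC5 (AT5G43890), YUC7 (AT2G33230), YUC8 (AT4G28720) and YUC9 (AT1G04180), and the inactivation genes are DAO1 (AT1G14130) and GH3.17 (AT1G28130). RNA came from roots of wild-type (WT) Arabidopsis thaliana Col-0 seedlings, 8 days old, grown under constant light and fixed in RNAlater before dissection. Zone II was a 1.5 mm section with the elongation and root hair region, and zone I was the 0.5 mm tip with the root cap and the dividing cells. Each zone had 3 libraries, and the sections hold many cell types. The authors' deposited table compares 2 conditions, called experiment and control, and no source used here says which zone either name stands for. Fold changes are therefore given on the log2 scale as experiment over control, 1 value per gene with no SD or n, and neither condition is assigned to a zone. The levels behind the fold changes were not used here, since no label ties them to a sample, and the depth of the libraries is unknown.

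TAA1 and TAR2 are aminotransferases that turn tryptophan into indole-3-pyruvate. YUC enzymes are flavin monooxygenases that turn indole-3-pyruvate into IAA, and this step limits the rate of the pathway. DAO1 is a dioxygenase that oxidises IAA to 2-oxindole-3-acetic acid, and GH3.17 joins IAA to the amino acid glutamate. In roots, auxin forms a maximum near the tip that holds the stem cell niche, and it also acts in elongation, root hair growth and gravity responses. YUC3, YUC5, YUC7, YUC8 and YUC9 are known as the YUC genes that act in roots.

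Reads of the YUC genes could in principle be assigned to the wrong family member, so their sequences are shown first. The longest stretch that the RefSeq transcripts of YUC5 and YUC9 share without a difference is 42 bases, which is shorter than the 150-base reads named in the labels. This stretch lies in the coding sequence and is printed here 5′ to 3′ on the gene's strand, with the aligned stretch of 2 relatives and with capitals at bases that differ from YUC5 (TAIR10.1, positions chr5:17649013-17649054 minus strand, chr1:1105791-1105832 plus strand, chr1:1281134-1281175 plus strand and chr2:14080567-14080608 minus strand).
YUC5: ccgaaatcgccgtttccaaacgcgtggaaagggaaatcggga
YUC9: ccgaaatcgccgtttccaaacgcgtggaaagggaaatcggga
YUC3: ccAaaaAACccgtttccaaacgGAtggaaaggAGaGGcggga
YUC7: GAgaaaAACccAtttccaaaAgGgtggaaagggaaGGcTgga
YUC3 differed from YUC5 at 10 of these 42 bases and YUC7 at 11. No ungapped block of the YUC8 alignment covered the whole stretch, so YUC8 is not shown. In the best local alignment of the transcripts, YUC5 and YUC9 were 81.0% identical across 1568 aligned bases. YUC3 and YUC7 were 80.8% identical across 1278 aligned bases. Gaps and the parts of a transcript outside its alignment are not counted in these percentages. YUC8 was closest to YUC9, at 76.6% with a longest shared run of 23 bases. TAA1 and TAR2 aligned over 687 bases at 72.5% identity, with a longest shared run of 16 bases.

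Of the 9 genes, 8 were tested and 3 passed the authors' Cuffdiff test at a q-value under 0.01, with TAR2 and YUC8 higher and TAA1 lower in the experiment condition of the authors' deposited table. Among all 18050 tested loci 43.6% passed, 22.3% higher and 21.2% lower, so 3 of 8 is near the share of all loci. At a q under 0.05, 27.8% of all tested loci were higher and 28% lower, and 3 members stood on either side. The median log2 fold change of the 8 tested members was 1.62, against -0.032 over all tested loci. Of the 8, 5 had a positive fold change. The members were chosen with earlier results of these data known, so these values only describe the set. Both signs occurred at each synthesis step and among the inactivating enzymes.

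TAA1, the main aminotransferase of the pathway, fell by 1.84 on the log2 scale, which is 3.59-fold lower in the experiment condition, with a Cuffdiff q of 0.00132 in the authors' deposited table. TAR2, a relative with the same activity, rose by 5.26 on the log2 scale, which is 38.4-fold higher in the experiment condition, with a Cuffdiff q of 0.00652 in the authors' deposited table. How far the large fold change of TAR2 rests on low levels was not tested. The aminotransferases of this step thus both passed the test, in opposite directions. Among tested loci with a finite fold change, 637 had a higher one than TAR2 and 2278 a lower one than TAA1. Another 535 tested loci are listed at 0 in the control condition and 192 in the experiment condition, and these have no finite fold change to rank. Since the samples are sections of mixed tissue, fewer cells of a type and less RNA per cell cannot be told apart for these genes or for those that follow.

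YUC8, a flavin monooxygenase that is also known from shade and warmth responses of the shoot, was the 1 called YUC gene among the members. YUC8 rose by 2.38 on the log2 scale, 5.20-fold, with a Cuffdiff q of 0.000177 in the authors' deposited table. This is the smallest q the table holds, and other loci share it, GH3.5 and NIT1 among them. YUC5 and YUC9 had larger fold changes than YUC8 and did not reach the threshold. The log2 fold change of YUC5 was 6.44 with a Cuffdiff q of 0.153, and that of YUC9 was 3.55 with a q of 0.0370, both in the authors' deposited table. Among tested loci with a finite fold change, 346 had a higher one than YUC5, whose fold change was the highest of the members. How far the fold changes of YUC5 and YUC9 rest on low levels was not tested.

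YUC3 was the 1 tested YUC gene among the members with a negative fold change. The log2 fold change of YUC3 was -0.77 with a Cuffdiff q of 0.0146 in the authors' deposited table, close to the threshold of 0.01 but not under it. YUC7 was the 1 member without a test. In the authors' deposited table its fold change has no finite value, and the gene is listed at 0 in the experiment condition. In TAIR10.1 the gene overlaps its neighbour AT2G33220, whose log2 fold change was 0.38 with a Cuffdiff q of 0.0811 in the authors' deposited table. The deposited loci of this pair do not overlap and lie 253 bases apart. The other 8 members overlap no annotated gene.

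DAO1 and GH3.17, which remove active auxin by oxidation and by conjugation, had smaller fold changes than most of the synthesis genes. The log2 fold change of DAO1 was 0.85 with a Cuffdiff q of 0.102 in the authors' deposited table. That of GH3.17 was -0.80 with a Cuffdiff q of 0.0332 in the authors' deposited table. Their signs were opposite, and neither difference reached the threshold.

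**Figure D1:**
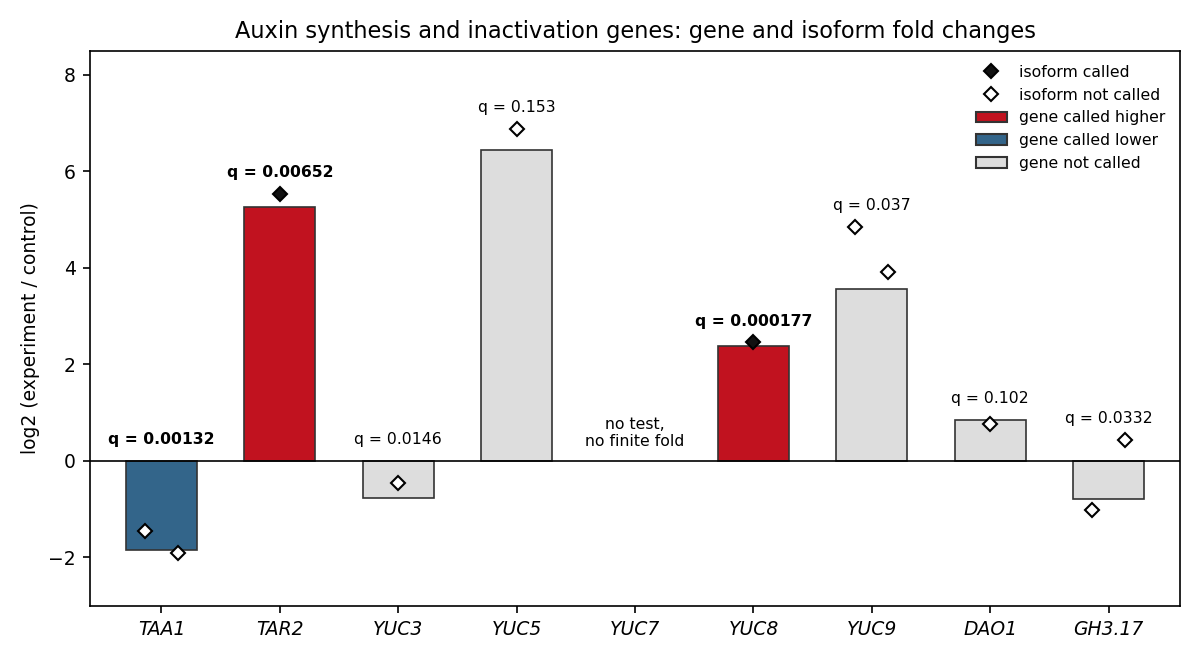
The log2 ratio of experiment over control (vertical axis) of the 9 genes, as bars from 0 coloured by their call at a q under 0.01, with the Cuffdiff q-value of the gene above each and a diamond for each tested isoform, filled where called. TAA1, YUC3 and GH3.17 lie below 0, and YUC7 has no finite value.

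The order of the members by test statistic was not their order by q. YUC5 had a Cuffdiff test statistic of 3.27 and was not called, while TAR2 with 3.23 and TAA1 with -2.52 were called in the authors' deposited table. Of the 397 tested loci within 0.1 of the absolute statistic of YUC5, 56 (14.1%) were not called. For YUC9, with a statistic of 2.16, this held for 150 of 719 loci (20.9%). YUC3, GH3.17 and DAO1 had absolute statistics at which nearly no locus was called, with 977 of 998, 939 of 942 and 1068 of 1070 loci within 0.1 not called. The order of the tested members by Cuffdiff p-value was their order by q. The deposited Cuffdiff p was 0.10325 for YUC5, 0.01965 for YUC9 and 0.0027 for TAR2. Why the order by statistic differed from the order by p was not tested.

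**Figure D2:**
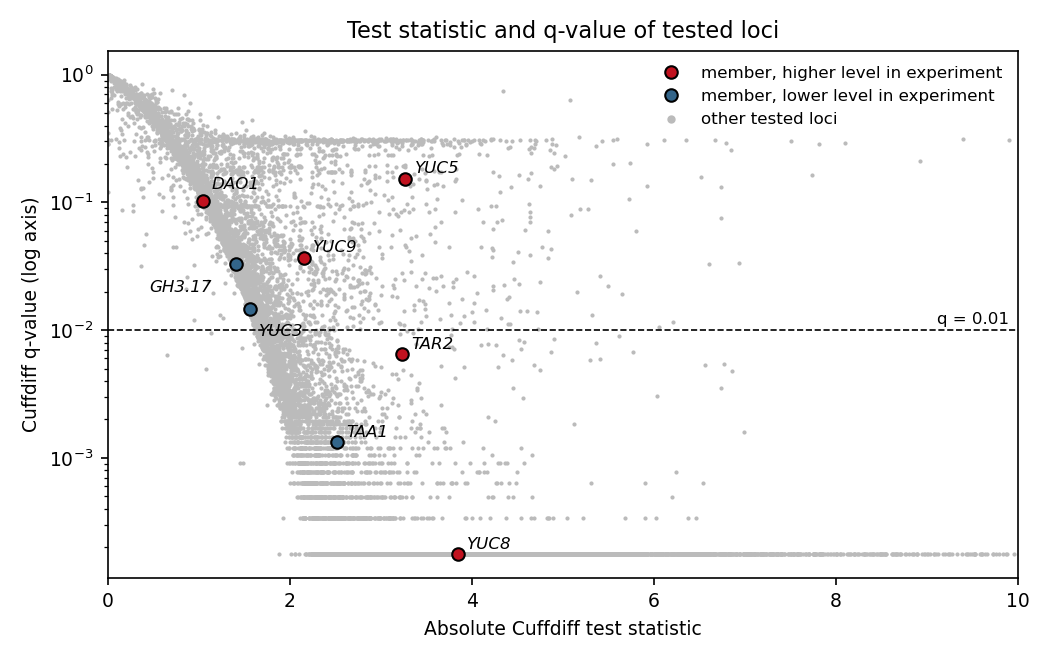
Absolute Cuffdiff test statistic (horizontal axis) and q-value (vertical log axis) of tested loci in grey and of the 8 tested members, red where higher and blue where lower in the experiment condition; the axis ends at 10, beyond which lie 60 of 17323 loci with a finite statistic. YUC5 and YUC9 lie to the right of the main band and above the dashed line at q = 0.01.

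The loci of the members in the authors' deposited table lie within the annotated genes of the reference, all of them protein-coding. TAA1 runs from 26604855 to 26607503 on chromosome 1, and TAR2 from 12727834 to 12731274 on chromosome 4. YUC8, annotated with 1 exon, runs from 14192583 to 14194256 on chromosome 4. On chromosome 1 lie YUC3 from 1279388 to 1281618, YUC9 from 1104623 to 1105988, DAO1 from 4835724 to 4837616 and GH3.17 from 9825286 to 9828067. YUC5, annotated with 1 exon, runs from 17648857 to 17650131 on chromosome 5, and YUC7 from 14080411 to 14081971 on chromosome 2. DAO1 lies 634 bases from its tandem relative DAO2 (AT1G14120), which was not tested and is listed at 0 in the control condition of the authors' deposited table.

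The same genes appear in the authors' isoform table, in which 62921 assembled transcripts are listed. The 9 genes had 13 isoforms there, 11 of them tested, and 2 passed at a q under 0.01, both higher in the experiment condition. Among all 32807 tested isoforms 16.8% passed, 9.93% higher and 6.9% lower. The single YUC8 isoform rose by 2.45 on the log2 scale (Cuffdiff q = 0.000428) and the tested TAR2 isoform by 5.53 (Cuffdiff q = 0.000812) in the authors' deposited table. Isoform and gene values come from the same libraries, so the isoforms are no separate evidence for the genes.

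TAA1 had 2 isoforms with negative log2 fold changes, -1.44 (Cuffdiff q = 0.0195) and -1.92 (Cuffdiff q = 0.414), in the authors' deposited table. The call of TAA1 as a gene was thus not seen for either of its isoforms. GH3.17 also had 2 isoforms, with opposite signs. Their log2 fold changes were -1.01 (Cuffdiff q = 0.224) and 0.44 (Cuffdiff q = 0.791) in the authors' deposited table, and the difference between them was not tested. The single isoforms of YUC5 (log2 6.88, Cuffdiff q = 0.419), YUC3 (log2 -0.46, Cuffdiff q = 0.243) and DAO1 (log2 0.77, Cuffdiff q = 0.222) had the signs of their genes and larger q-values than the genes in the authors' deposited table. For YUC9 the authors' deposited table gives 2 isoforms (log2 4.84, Cuffdiff q = 0.422, and log2 3.91, Cuffdiff q = 0.397) at a locus of 38.2 kb, far longer than the gene, so these values are uncertain. The second TAR2 isoform and the YUC7 isoform were not tested.

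The YUC5 and YUC9 promoters are shown because these genes had large positive fold changes without a call, a likeness that was noticed in these data. Among the 36 pairs of members, the 250 bases before the annotated starts of YUC5 and YUC9 gave the highest local alignment score, 79, against 18 to 43 for the other 35 pairs. They aligned over 136 bases, of which 111 were identical, and the sequences (RefSeq, TAIR10.1, chr5:17650376-17650625 minus strand and chr1:1104243-1104492 plus strand) carry capitals at the aligned identical runs of at least 8 bases.
YUC5: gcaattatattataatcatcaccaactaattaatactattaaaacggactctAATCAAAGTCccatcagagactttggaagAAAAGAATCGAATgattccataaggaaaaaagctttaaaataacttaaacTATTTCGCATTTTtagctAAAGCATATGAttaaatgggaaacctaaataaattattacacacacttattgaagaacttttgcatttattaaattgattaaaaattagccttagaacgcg
YUC9: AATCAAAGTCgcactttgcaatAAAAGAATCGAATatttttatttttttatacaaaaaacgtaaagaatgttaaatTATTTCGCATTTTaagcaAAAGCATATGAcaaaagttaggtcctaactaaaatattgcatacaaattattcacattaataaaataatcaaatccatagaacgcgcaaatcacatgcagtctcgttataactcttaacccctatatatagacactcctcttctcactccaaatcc
There were 4 such runs, in the same order in both promoters, with 47 bases in all. The transcripts of YUC5 and YUC9 are also closely related, so the likeness of the promoters is a description of this gene pair. The auxin response element core TGTCTC and the G-box CACGTG were searched on both strands, and neither was found in the 250 bases before the start of any of the 9 genes. Over 27437 protein-coding genes, 10.9% of such windows hold TGTCTC and 6.49% hold CACGTG.

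A wider set of auxin metabolism genes held 52 further genes in 5 lists, and 37 of them were tested. Of these 10 rose and 7 fell, together 45.9%, against 43.6% of all tested loci, with a median log2 fold change of 0.46. Among the TAR and YUC relatives 3 of 9 were tested and all 3 passed. YUC6, another flavin monooxygenase, rose by 2.11 on the log2 scale (Cuffdiff q = 0.00119) in the authors' deposited table. AT1G34040, named TAR3 for its likeness to TAA1, rose (log2 4.81) and AT1G34060, named TAR4, fell (log2 -1.94) in the authors' deposited table. The TAR4 locus also covers AT1G34065, so its value is uncertain. Transcripts of TAR3 and TAR4 were 87.8% identical, with a longest shared run of 80 bases. Whether reads were assigned to the wrong gene of this pair was not tested. TAR1, YUC1, YUC2, YUC4, YUC10 and YUC11 were not tested.

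Genes that supply tryptophan had 1 of 12 tested members higher and 4 lower, with a median log2 fold change of -0.41. Together 41.7% were called, near the 43.6% of all tested loci. ASA2, an anthranilate synthase subunit (log2 -1.49), and TSB2, a tryptophan synthase beta subunit (log2 -1.53), fell in the authors' deposited table. PAI1 (log2 -2.10) and PAI3 (log2 -1.52), phosphoribosylanthranilate isomerases, also fell in the authors' deposited table. PAI1 shares an identical run of 254 bases with PAI2, longer than a read, so the PAI values are uncertain. PAT1, the phosphoribosyltransferase of this pathway, rose (log2 0.88) in the authors' deposited table. IGPS, an indole-3-glycerol phosphate synthase (log2 -0.59, Cuffdiff q = 0.373), and ASA1, another anthranilate synthase subunit (log2 -0.52, Cuffdiff q = 0.162), were not called in the authors' deposited table.

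Enzymes of the indole-3-acetaldoxime and nitrile branch had 4 of 8 tested genes higher and 2 lower, with a median log2 fold change of 0.70. Together 75% of these 8 were called, against 43.6% of all tested loci. The nitrilase NIT1 rose by 1.33 on the log2 scale, and its neighbours NIT2 (log2 -1.94) and NIT3 (log2 -1.26) fell, in the authors' deposited table. These nitrilases of 1 gene cluster thus differed in direction, as TAA1 and TAR2 did within 1 step. The nitrilases are more alike, with 90.9% identity and a longest shared run of 104 bases for NIT1 and NIT2. For NIT1 and NIT3 these were 87.5% and 58 bases, against 72.5% and 16 bases for TAA1 and TAR2. Whether reads were assigned to the wrong nitrilase was not tested. CYP83B1 (log2 0.93) and SUR1 (log2 1.29), which lead from the aldoxime towards indole glucosinolates, rose in the authors' deposited table. AMI1, an amidase, is listed at 0 in the control condition and was called higher (Cuffdiff q = 0.000177), with no finite fold change, in the authors' deposited table. CYP79B2 (log2 0.22, Cuffdiff q = 0.486) and CYP79B3 (log2 0.47, Cuffdiff q = 0.447), which make the aldoxime, were not called in the authors' deposited table.

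Relatives of DAO1 and GH3.17 in oxidation and conjugation had 2 of 5 tested genes higher and 0 lower, with a median log2 fold change of 2.18. The 40% called here is near the 43.6% of all tested loci. GH3.5, which joins IAA to aspartate, rose by 2.18 on the log2 scale (Cuffdiff q = 0.000177) in the authors' deposited table. IAMT1, which methylates IAA, rose by 5.53 on the log2 scale (Cuffdiff q = 0.000338) in the authors' deposited table. GH3.1 (log2 3.29, Cuffdiff q = 0.305) and GH3.6 (log2 0.59, Cuffdiff q = 0.176), of the same enzyme family as GH3.17, were not called in the authors' deposited table. Among genes that release IAA from conjugates or from indole-3-butyric acid, 1 of 9 tested genes rose and 0 fell (11.1%, against 43.6% of all tested loci), with a median log2 fold change of 0.48. This gene was ILL1, an amidohydrolase (log2 2.27 in the authors' deposited table). Its relative ILL2 (log2 1.36, Cuffdiff q = 0.140) and the peroxisomal enzyme ECH2 (log2 0.89, Cuffdiff q = 0.0408) were not called in the authors' deposited table. Transcripts of ILL1 and ILL2 were 90.6% identical, with a longest shared run of 53 bases. Whether reads were assigned to the wrong gene of these was not tested.

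**Figure D3:**
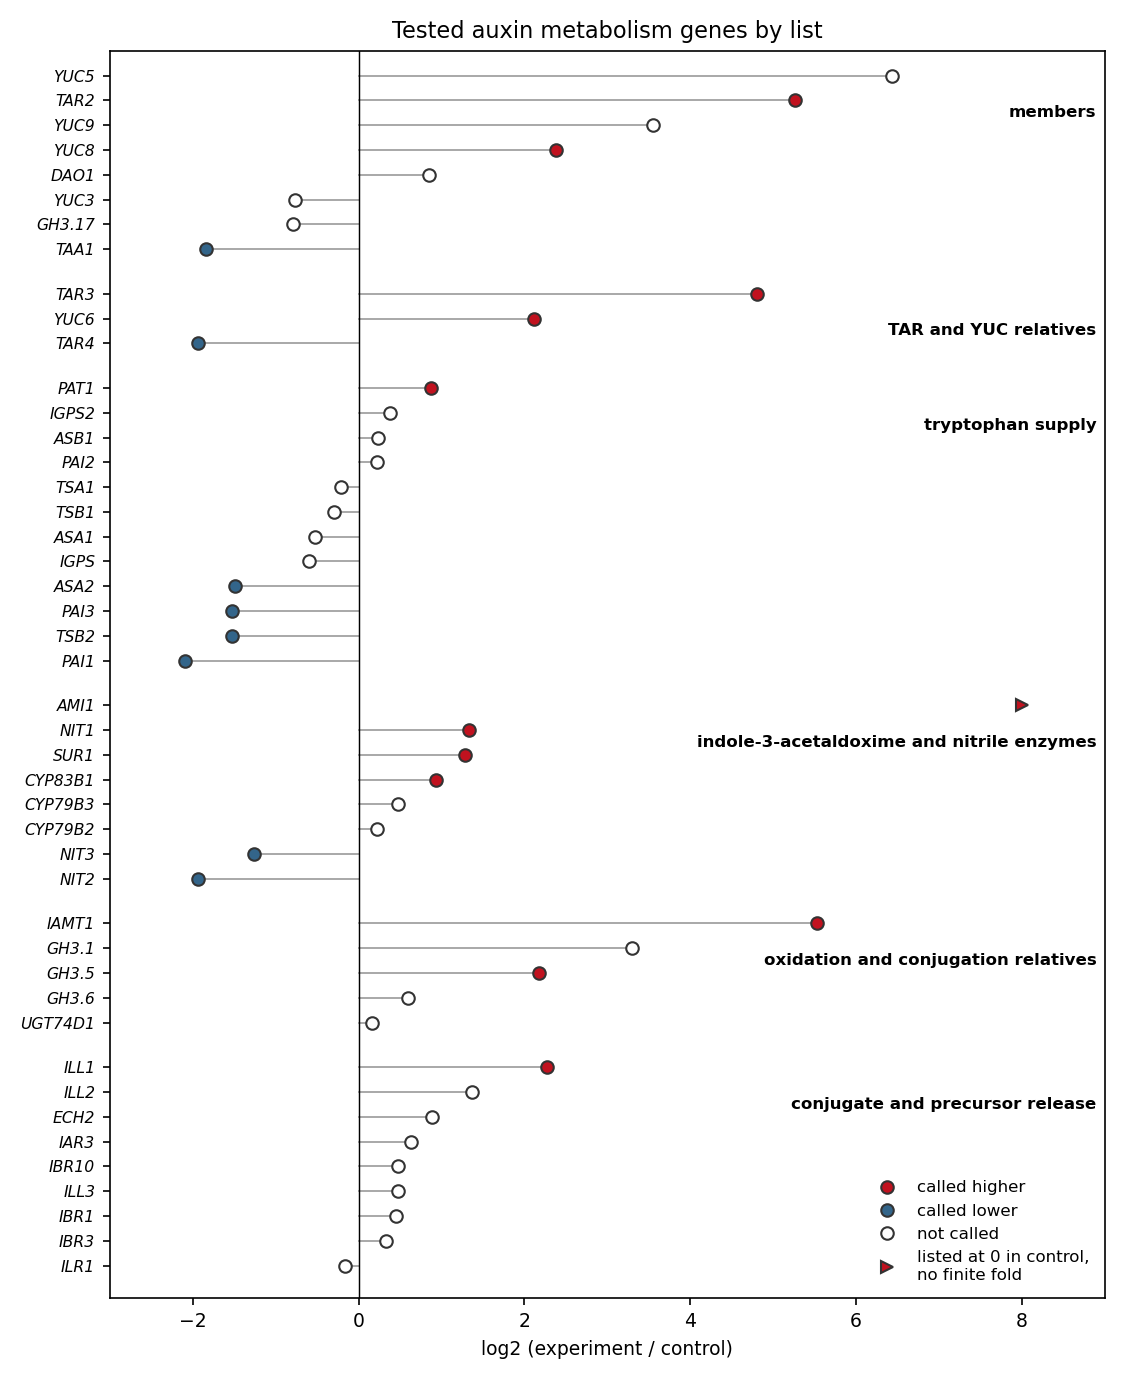
The log2 ratio of experiment over control (horizontal axis) for each tested gene of the members and of the 5 further lists, with red points called higher, blue points called lower and white points not called at a q under 0.01. The triangle marks AMI1, which is listed at 0 in the control condition, has no finite fold and is drawn at an arbitrary place.

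Markers of the cell types in the sections differed between the conditions and are given beside these results. Of all tested loci 22.3% were called higher and 21.2% lower. Of 4 root cap markers 3 were called lower in the experiment condition, namely BRN1, BRN2 and FEZ, each listed at 0 there in the authors' deposited table. Of 5 markers of dividing cells 4 were called lower, with MAP65-3 listed at 0 in the experiment condition of the authors' deposited table. Of 4 root hair markers counted, 3 were called higher and 1, RHD6, lower. The root hair marker PRP3, given in 2 entries at the same position, was left out of this count. Neither PRP3 entry was called (log2 9.44, Cuffdiff q = 0.310, and log2 9.92, Cuffdiff q = 0.303, in the authors' deposited table). All 4 xylem markers and 3 of 4 endodermis markers were called higher. VND6 of xylem and CASP2 of the endodermis are listed at 0 in the control condition of the authors' deposited table. The uncalled root cap marker SMB (log2 -7.82, Cuffdiff q = 0.310) and dividing cell marker CDC20.2 (log2 -3.64, Cuffdiff q = 0.326) also had negative fold changes. The uncalled CASP1 of the endodermis (log2 14.1, Cuffdiff q = 0.273) had a positive one. All 5 photosynthesis genes of a shoot marker list were called higher. Both sections are of root, and whether these 5 genes mark shoot tissue here was not tested. The part of the marked cell types in the fold changes of the auxin genes was not tested.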

How the data were processed

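The sample titles gave the zone of each library. The labels' protocols describe a SMART-Seq kit used on nanogram amounts of total RNA, PCR amplification and paired-end sequencing. The submitters' processing notes name TopHat, Cufflinks, Cuffdiff and TAIR10, and give no settings. The log2 fold change, the test statistic (a score of the authors' Cuffdiff run), the p-value and the q-value were taken as deposited. An infinite fold change is a gene listed at 0 in one condition, and a spreadsheet error stands in the place of minus infinity.

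The 2 deposited tables also hold 4 columns of condition values. These match no sample or group in the labels and were not used, so fold changes come from the deposited log2 column, and no level, sum or share is given.

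A gene or isoform was called at a q under 0.01. No test was added. Counts, medians and ranks were computed with pandas 2.3.3, and the counting was tested on simulated data. Loci are those of the files, counted from 1. All 61 listed pathway and member identifiers matched the RefSeq table of TAIR10.1, where DAO1, TAR3 and TAR4 have no symbol. Transcripts were aligned locally with Biopython 1.88.

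The members and lists were chosen with earlier results of these data known. Named are all members and their tested isoforms, every called gene of the 5 lists and up to 2 uncalled genes per list. These 2 were to be those with the highest level, and are those with the largest absolute fold change, since levels were not used. The marker PRP3, given in 2 entries at the same position, was left out of the counts.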

Additional observations from a re-analysis of the deposited data

How the results depend on the processing

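At a q under 0.05 in place of 0.01, 3 members were called lower in place of 1, with YUC3 and GH3.17 added, and 3 higher in place of 2, with YUC9 added. The other counts, of members, isoforms and further genes, stayed within 1.5 times of those reported under the alternatives run for them, which were the q of 0.05, a log2 fold change of at least 1 and, for genes, the loci of a single gene identifier. Subtracting the median of all tested loci with a finite fold (-0.075) reversed no direction of the 8 tested members. It could reverse none, since the smallest member fold change in size, -0.77 for YUC3, exceeds this shift. A minimum level, pseudocounts and sums of isoforms had been planned and were not run, because they need the condition values, so how far the large fold changes of YUC5, TAR2 and YUC9 rest on low levels was not tested. No paired analysis was possible because the tables hold no values per replicate, and for the same reason no replicate could be left out.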

Other observations

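Within 1500 bases of the members' deposited loci lie 9 other loci, of which 6 were tested and 3 were called (50%, against 43.6% of all tested loci). AT1G04190, which starts 439 bases beyond the deposited YUC9 locus, fell (log2 -1.30, Cuffdiff q = 0.000177 in the authors' deposited table). AT1G14140, which lies 310 bases from DAO1, also fell (log2 -1.25, Cuffdiff q = 0.000780 in the authors' deposited table). AT1G28135, which lies 1193 bases from GH3.17, rose (log2 1.01, Cuffdiff q = 0.00399 in the authors' deposited table). YUC9, DAO1 and GH3.17 themselves were not called. The tested neighbours without a call were AT1G70570 beside TAA1 (log2 -0.28, Cuffdiff q = 0.341), AT4G24680 beside TAR2 (log2 -0.40, Cuffdiff q = 0.113) and AT2G33220 beside YUC7 (log2 0.38, Cuffdiff q = 0.0811) in the authors' deposited table.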
